A study of Triticum aestivum with 15 samples.

Results

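The wheat line TH237, which carries the cytoplasm of the wild barley Hordeum chilense (H7) under the nuclear genome of the bread wheat T20, was compared with T20 itself in its own cytoplasm. The rule took 3 arrays labelled ALLO_TH237 and 3 labelled EU_T20 and kept each probe set whose MAS signal exceeded its array's 55th percentile in 3 or more of these 6. This left 28106 of the 61179 probe sets that are no hybridization controls. The series holds 15 arrays in all, the other 9 being of the wheat Chris and of Chris nuclei with the cytoplasm of Aegilops uniaristata (T183) or of Aegilops squarrosa (T195), a species also called Aegilops tauschii. All arrays are of the second fully expanded leaf of seedlings grown in garden soil for 14 days. By the study's methods the plants used for RNA grew at its high light intensity and not at its low one. Each array is of plants bulked within a pot, so p-values measure the spread between 3 pots per line. As the study's methods give it, TH237 was made by only a pair of backcrosses to T20 after the cross with H. chilense, so that cytoplasm and any donor or segregating nuclear genes left in the line cannot be told apart. The array was designed on wheat, and the match of its probes to H. chilense organelle sequence was not measured. Leaf RNA was hybridized whole, so fewer cells of a type and less RNA per cell cannot be told apart.

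Plastids and mitochondria keep small genomes of their own, which in wheat pass through the egg cell, and most of their proteins are encoded in the nucleus and imported. Photosystems, the plastid ATP synthase, the NADH dehydrogenase complex of the plastid and the respiratory complexes are therefore built from subunits of both genomes. In an alloplasmic line the nucleus of a species works with the organelles of another, and the signals that organelles send to the nucleus, named retrograde signals, are known to set the level of nuclear genes for photosynthesis and stress defence.

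Signals are given as MAS signals in array order, replicates 1, 2 and 3. Changes are TH237 minus T20 on the scale of log2(signal + 16), with the standard error of the limma fit. A probe set was called higher or lower when limma's adjusted p was 0.05 or less and the lines differed 2-fold or more. Of the 28106 probe sets tested, 637 (2.27%) were called, 394 higher (1.4%) and 243 lower (0.865%) in TH237. The median change over all probe sets tested was near 0 (-1.60e-04), whereas the called rises had a median of 1.44 and the called falls one of -1.42. Rises of over 8-fold were called at 20 probe sets and such falls at 16. The 637 called probe sets belong to 561 probe set clusters, which stand for groups of similar transcripts. In all 637 the arrays of the lines did not overlap, a condition met by 26.1% of the probe sets tested. Without T20 replicate 1, 2 or 3 the calls numbered 317, 283 and 439, and without TH237 replicate 1, 2 or 3 they numbered 275, 232 and 387. Where a gene is said to be called with each array left out, it passed in all 6 of these fits, as 60 of the 127 called probe sets taken up by the naming rule did. Called changes ran down to the fold limit itself, and 593 probe sets past 2-fold missed the adjusted p, the nearest at 0.0502. The plot of mean signals shows the calls on both sides of the diagonal over the whole range of signal.

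**Figure D1:**
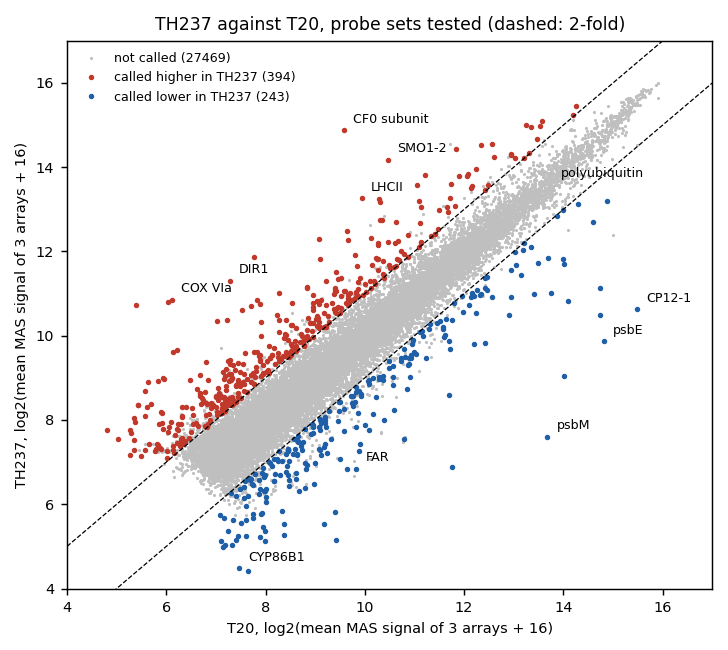
Mean MAS signal of the 28106 probe sets tested, with T20 on the x axis and TH237 on the y axis, both as log2 of the mean of 3 arrays plus 16. Red points are the 394 probe sets called higher in TH237, blue points the 243 called lower, and dashed lines mark a 2-fold difference; psbM lies farthest below the diagonal and the CF0 subunit of the ATP synthase farthest above it.

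The squared correlation of log2 signals ran from 0.933 to 0.945 between T20 arrays, from 0.929 to 0.943 between TH237 arrays and from 0.881 to 0.908 between the lines. Markers of leaf mesophyll (12 probe sets of LHCII and the rubisco small subunit) summed to 31766 to 49259.7 in T20 and 117465 to 134252 in TH237. These markers were picked from the study's probe set table, which was drawn from these same arrays. So were most of the epidermis markers and all anther and flower markers given further on. Their sums are therefore a description and no independent evidence on cell types. The 18 seed endosperm probe sets, of storage proteins and amylase inhibitors, summed to 647 to 888 in T20 and 752 to 849.9 in TH237, and 2 of them passed the signal filter. Polyubiquitin, the reference gene of the study's qRT-PCR, gave 13891, 14068 and 13528 in T20 and 11213, 12518 and 13611 in TH237, a change of -0.16 ± 0.14 that did not pass (adjusted p 0.594). On the 9 arrays of the Chris background, which the comparison did not use, the mean level of the called probe sets was nearer to T20 at 511 and nearer to TH237 at 126, a share of 80.2% on the side of T20 beside 58.7% over all probe sets tested.

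The deepest fall and the largest rise of all calls lay in genes of the plastid genome. Genes outside that genome were also among the largest changes, as given further on. The psbM gene encodes a small subunit of photosystem II where its monomers meet. Its deeper falling probe set gave 8998, 17180 and 13090 in T20 and 148, 146 and 242 in TH237, a change of -6.06 ± 0.29 (adjusted p 2.30e-04). The lowest T20 array was thus far above the highest TH237 array. The qRT-PCR primers for this transcript are shown because they name the stretch of psbM read by that assay:
psbM forward: gattaagaaagctcgtgggttagaga
psbM reverse: ccacactaagaccaaaatgggtttt
A further probe set of the same cluster, with 40667, 47813 and 48038 in T20 and 12561, 29817 and 28839 in TH237, changed by -1.04 ± 0.33 and did not pass (adjusted p 0.149). Both probe sets were thus lower in TH237 without overlap of the lines, but the sizes of the falls differ widely. The psbM call held with each array left out.

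The psbE gene encodes the alpha chain of cytochrome b559, which binds heme beside the reaction centre of photosystem II. Its deepest falling probe set gave 26433, 30806 and 29378 in T20 and 878, 1105 and 772 in TH237, a change of -4.96 ± 0.17 (adjusted p 2.07e-04), and a second psbE probe set one of -4.93 ± 0.20. The remaining probe sets of the psbE cluster changed by -0.16 ± 0.30 and -1.94 ± 0.59 and did not pass. The gene of chain 5 of the plastid NADH dehydrogenase (ndhF), a complex which drives electrons back into the photosynthetic chain, gave 1627, 5086 and 3550.5 in T20 and 153, 47.8 and 103 in TH237 and fell by 4.84 ± 0.49 (adjusted p 0.00637). Among genes of the plastid ribosome, probe sets fell for rps12 (-3.60 ± 0.15), for rpl32 (-2.91 ± 0.41) and for rpl2 (-2.70 ± 0.23). In the cluster of rpl2, rpl16 and rpl23 a further probe set fell (-3.11 ± 0.30), while the one annotated as the plastid-encoded protein L16 rose by 1.22 ± 0.22 (adjusted p 0.0359), from 5990.4, 10003 and 8778 to 21257, 16409 and 19248. The rps12 signals were 24918, 27370 and 29320 in T20 and 2406, 1981 and 2288 in TH237. In the rps12 cluster a probe set annotated as a permease of ABC transporters fell too (-4.26 ± 0.19). The plastid maturase matK, which splices plastid introns, gave 4488, 5414 and 6509 in T20 against 1924, 2839.9 and 1962 in TH237, a change of -1.29 ± 0.22 (adjusted p 0.0295). The calls at psbE, ndhF, rps12, rpl2, the further probe set of its cluster and the permease held with each array left out, those at rpl32 and matK in 3 and 1 of the 6 fits, and the rise of L16 in 0.

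The largest rise was at the plastid gene of subunit I of the CF0 part of the ATP synthase, which lets protons through the thylakoid membrane. Its probe set gave 528, 1084 and 639 in T20 and 27686, 26400 and 36783 in TH237, a change of 5.36 ± 0.28 (adjusted p 4.00e-04). Other probe sets of its cluster did not share the rise, at 0.29 ± 0.17, -0.34 ± 0.71 and, called lower, -1.05 ± 0.18. The alpha subunit of the plastid RNA polymerase, rpoA, gave 100.4, 219 and 291 in T20 and 3490.4, 3501 and 4196 in TH237, a rise of 4.20 ± 0.34 (adjusted p 0.00359). In another cluster matched to rpoA none of 8 probe sets was called, with changes from -0.53 to 1.03. A probe set of psbA, the gene of the D1 protein that is replaced most often in photosystem II, rose by 1.86 ± 0.35, from 5562, 14537 and 8944 in T20 to 26847, 31701 and 40452 in TH237. Over the 11 clusters with a plastid gene, 4 of 54 probe sets tested were called higher and 11 lower, around a median change of 0.25, so most probe sets of the same clusters were not called. With each array left out the calls at the CF0 subunit and at rpoA held, whereas the rise of psbA passed in 1 of the 6 fits and the fall of -1.05 in none. The plot of these clusters shows called and uncalled probe sets of the same gene region side by side.

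**Figure D2:**
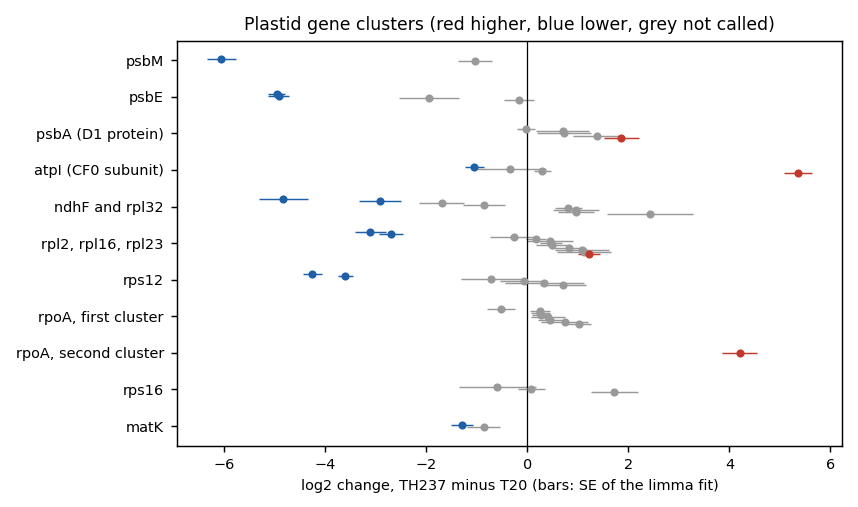
Change of each of 54 probe sets in 11 clusters that hold a gene of the plastid genome, on the x axis as the log2 change of TH237 minus T20 with the standard error of the limma fit, and on the y axis the genes of the cluster. Red points were called higher, blue lower and grey not called; the psbM, psbE, rps12 and ndhF clusters hold the deepest falls and the CF0 and rpoA clusters the largest rises, beside grey probe sets near 0.

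The other cytoplasms can be set beside these values, with Chris and not T20 as their euplasmic line. For psbE the medians were 22409 in Chris, 520.3 in T183 and 860.2 in T195, so the signal was low in each alloplasmic line and high in each euplasmic line. For ndhF the medians were 6259, 204 and 145, with the same order. For rps12 they were 22476, 8.87 and 9926, and for the permease of its cluster 23135, 16.2 and 5832. Both were lower in each alloplasmic line than in its euplasmic line. For psbM, in contrast, they were 9631, 10180 and 6420.3, and the TH237 arrays lay below the 9 arrays of the Chris background. The test of the difference between the TH237 effect and the mean effect of the Aegilops cytoplasms gave -5.84 ± 0.42 for psbM (adjusted p 1.80e-05) and 5.08 ± 0.35 for the CF0 subunit (adjusted p 1.80e-05), and it did not pass for psbE (0.13 ± 0.38, adjusted p 0.902) or ndhF (0.36 ± 0.56, adjusted p 0.79).

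The 22 probe sets that the study's probe set table places in the mitochondrion, of which 21 were tested, changed both ways as well. Of these 10 were called higher and 7 lower. Since that table was drawn by the study from these same arrays, this count and those of the gene lists further on are a description and no independent evidence. Of the 539 probe sets tested from the whole table, 217 were called higher and 137 lower, so 65.7% were called, and a list with a share near this holds no more calls than the table does. Cytochrome c oxidase, the last complex of the respiratory chain, was represented by several called rises. Subunit VIa, a nuclear product, gave 53.5, 46.9 and 59.2 in T20 and 1278, 2299 and 1936 in TH237, a change of 4.71 ± 0.23 (adjusted p 2.58e-04). No T20 array reached its 55th percentile, which makes the rise at least 16.8-fold when each dim signal is raised to that percentile. Every bound given below was taken in this way. Subunit 3, encoded in the mitochondrion, rose at both its probe sets, by 2.74 ± 0.15 and 2.43 ± 0.14, the former from 267, 291 and 321 to 1862, 1971 and 2319. Subunit I rose by 1.37 ± 0.22, and a probe set matched to chain 6 of the wheat mitochondrial NADH dehydrogenase, the entry complex of the chain, by 1.88 ± 0.20, or at least 2.17-fold. The medians of chain 6 were 157 in Chris, 1155 in T183 and 1238 in T195, so it was higher in each alloplasmic line than in its euplasmic line. Subunit I, chain 6 and the second probe set of subunit 3 are named after their values were seen. The calls at subunit VIa and at the probe set of subunit 3 given with its signals held with each array left out.

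AtnMat3, matched to the maturase of the nad1 intron in wheat mitochondria, was dim in T20, with 5.47, 43.9 and 26.0, and higher in TH237, with 229.9, 121 and 344. The rise was 2.60 ± 0.46 (adjusted p 0.0338), or at least 2.01-fold, but it was called in 0 of the 6 fits with an array left out. Its medians were 69.97 in Chris, 4284 in T183 and 1295 in T195, so both Aegilops lines gave higher signals than TH237, and the difference of effects was -2.51 ± 0.55 (adjusted p 0.0246). Of the falls, the probe set of a mitochondrial repeat with the fMet, 18S and 5S genes gave 677, 393 and 608 in T20 and 44.6, 7.69 and 39.2 in TH237, a fall of at least 4.81-fold (adjusted p 0.00686), and a second repeat of this kind changed by -2.57 ± 0.35. An open reading frame matched to ORF45a of a pine fell from 670, 623 and 704 to 53.8, 3.5 and 2.22, at least 5.86-fold. Its medians were 2574 in Chris, 19.6 in T183 and 27.4 in T195, so it was low in both Aegilops lines too. Called falls also came at probe sets annotated as nuclear genes of mitochondrial proteins. They were the haem-making protoheme IX farnesyltransferase (-2.12 ± 0.15), the import receptor subunit TOM6 (-1.38 ± 0.15) and the GABA transaminase POP2 (-1.34 ± 0.27 and -1.34 ± 0.24). The farnesyltransferase name is uncertain, since another probe set of its cluster with a like fall (-2.13 ± 0.17) is annotated as an unknown protein. That probe set is counted among the regulators of transcription. A further member of this cluster changed by -0.92 ± 0.22 and did not pass (adjusted p 0.0768). The other tested probe sets of the TOM6 and POP2 clusters were not called lower. Nuclear genes of the mitochondrial chaperones HSP23.6 (2.12 ± 0.17) and HSC70-2 (1.18 ± 0.15, named after its value was seen) rose. The calls at the former repeat, ORF45a, protoheme IX farnesyltransferase, TOM6 and HSP23.6 held with each array left out, and those of POP2 passed in 1 of the 6 fits. With 1 array left out, between 5 and 7 mitochondrial probe sets were called higher and between 4 and 6 lower.

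Nuclear genes of the light-harvesting antenna rose at most of the probe sets that the study's table holds for them. LHCII proteins bind chlorophyll a and b and pass light energy to photosystem II, and 11 probe sets were annotated as the LHCII protein LHB1B1. Of these 10 were called higher, 0 lower and 1 was not called, a share of 90.9% beside the 65.7% of the whole table. The median change was 2.68 over the 11, beside 0.93 over the probe sets tested from the table. Further tested probe sets of an LHCII cluster lie outside the table and are not in this count. The LHCII probe set with the largest rise gave 392.2, 875 and 1618 in T20 and 12007, 9778 and 7882 in TH237, a rise of 3.54 ± 0.47 (adjusted p 0.014). The next one gave 58.8, 110.3 and 171 and 1706, 1313 and 846, a rise of 3.37 ± 0.38 (adjusted p 0.00793). Another rose by 2.92 ± 0.38, and a further probe set of the cluster with the largest rise by 3.08 ± 0.33. The uncalled member had 7590.5, 2418 and 3454 in T20 and 5515, 7089 and 6153 in TH237, and its lines overlapped. The rubisco small subunit, the other mesophyll marker, changed by 0.96 ± 0.24 and did not pass, so the rise of the summed mesophyll markers is that of LHCII. Near-identical LHCII copies can share probes, so the members are not independent. Of the 4 called probe sets named here, the second and the last were called with each array left out and the others in 4 of the 6 fits.

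The T20 arrays themselves differed at these genes. In 10 of the 10 called LHCII probe sets T20 replicate 1 was the lowest and T20 replicate 3 the highest of the T20 arrays, and the highest T20 array was 2.64 times the lowest in the median, beside 1.2 times in TH237. Summed over the 10, the signal was 22322, 33929 and 42290.1 in T20 and 106464, 122430 and 116811 in TH237. In Chris the sums were 2170, 2326 and 13528, with Chris replicate 3 the highest at 10 of 10, and in T183 and T195 they ran from 882 to 1755. The TH237 arrays were thus above all others, and T20 above the whole Chris background. Over all 394 called rises T20 replicate 1 was the lowest T20 array in 49.7% and T20 replicate 3 the highest in 52.5%, beside 36.3% and 34.4% of the probe sets tested, and the part of this in the results was not tested. Leaving out T20 replicate 1, 2 or 3 gave 8, 6 and 10 LHCII calls, and leaving out TH237 replicate 1, 2 or 3 gave 4, 3 and 4.

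**Figure D3:**
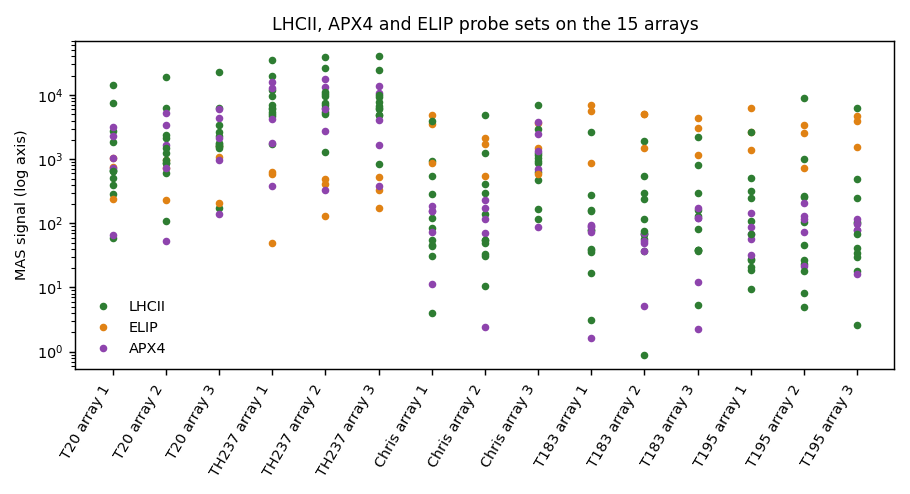
MAS signal, on a log axis, of the 11 LHCII probe sets (green), 5 of APX4 (purple) and 3 of early light-inducible proteins (ELIP, orange) on each of the 15 arrays, in 5 lines of 3. At the 10 called LHCII and all 5 APX4 probe sets the TH237 points lie above those of the other lines, whereas at the uncalled LHCII probe set they overlap T20 and T195.

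APX4, annotated as an ascorbate peroxidase, went with the antenna genes. All 5 probe sets of its cluster were called higher, with changes from 1.31 to 1.99. The one with the second largest rise gave 2310.2, 3447 and 4464 in T20 and 12684, 13537 and 10909 in TH237, a rise of 1.90 ± 0.25 (adjusted p 0.0137). The 3 probe sets of early light-inducible proteins, which take up free chlorophyll under strong light, did not pass and had changes of the opposite sign, namely -1.16 ± 0.25 (adjusted p 0.0539), -0.87 ± 0.25 and -0.99 ± 0.37. These 3 are named after their values were seen. The number of APX4 calls was 2, 1 and 4 without T20 replicate 1, 2 or 3, and 0, 0 and 1 without TH237 replicate 1, 2 or 3, and no single member was called in all 6 fits.

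CP12-1, a small chloroplast protein that ties Calvin cycle enzymes together in the dark, went the other way. A probe set of CP12-1 gave 35320, 51285 and 50448 in T20 and 1521, 1803 and 1395 in TH237, a change of -4.83 ± 0.20 (adjusted p 2.07e-04). The other probe sets of this cluster changed by 0.04 ± 0.17 and 0.03 ± 0.18 and gave no call, so the fall was seen by 1 of 3 probe sets. In the Chris background the called probe set had medians of 30696 in Chris, 32716 in T183 and 28126 in T195. Ribose 5-phosphate isomerase, which feeds the regeneration phase of the Calvin cycle, rose by 1.23 ± 0.25 (adjusted p 0.047), a call made in 1 of the 6 fits with an array left out. Of the 9 probe sets for photosystem, ATP synthase and Calvin cycle, 3 were called higher and 4 lower, and those 4 falls, at psbM, CP12-1 and both psbE probe sets, were called with each of the 6 arrays left out.

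Among genes that set the supply of chlorophyll precursors, HEMA1 and FLU rose. HEMA1 encodes glutamyl-tRNA reductase, the enzyme that commits glutamate to tetrapyrroles, and FLU is a brake on that enzyme. HEMA1 gave 2513, 3542 and 3566 in T20 and 7798, 9079 and 8530.2 in TH237 at the former of its listed probe sets, a rise of 1.41 ± 0.18 (adjusted p 0.0129), and rose by 1.26 ± 0.19 at its other listed probe set. A further HEMA1 probe set named by the study is not counted here. FLU gave 116, 120 and 147 in T20 and 301, 489.6 and 286 in TH237, a rise of 1.35 ± 0.23 (adjusted p 0.0296), with 1.34 ± 0.23 at a second cluster. A further FLU probe set of that second cluster was not called. EXECUTER 2, a plastid protein that relays the singlet oxygen signal in Arabidopsis, had 20.1, 88.6 and 140.2 in T20 and 191, 265 and 158 in TH237, and its change of 1.37 ± 0.51 did not pass (adjusted p 0.206). Of the 6 probe sets of this list 4 were called higher and 0 lower, 66.7% beside the 65.7% called over the whole table. Without T20 replicate 1, 2 or 3 the calls numbered 1, 1 and 2, and without TH237 replicate 1, 2 or 3 they numbered 2, 1 and 1, with FLU at the probe set given with its signals in none of these fits. Nuclear genes for plastid ribosomal proteins also rose, L13 by 1.18 ± 0.20, L19 by 1.19 ± 0.23 and one annotated as a chloroplast-specific ribosomal protein by 2.99 ± 0.38, the last from 466, 525 and 1369 to 6009.8, 6043 and 4982, of which L13 and L19 are named after their values were seen. The 14 probe sets for plastid gene expression include AtnMat3, a called rise also counted in the mitochondrial list, and another maturase of both lists. This other maturase, which the study matches to AtnMat4, was called higher too. Its medians were 114 in Chris, 10146 in T183 and 3622 in T195, so it was higher in both Aegilops lines than in Chris. Of the 14, 7 were called higher and 4 lower, and the 4 falls, at matK, rpl2, rpl32 and rps12, were all at genes of the plastid genome. Without T20 replicate 1, 2 or 3 the calls higher numbered 2, 4 and 2, and without TH237 replicate 1, 2 or 3 they numbered 1, 1 and 4, while the calls lower ran between 2 and 4.

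**Figure D4:**
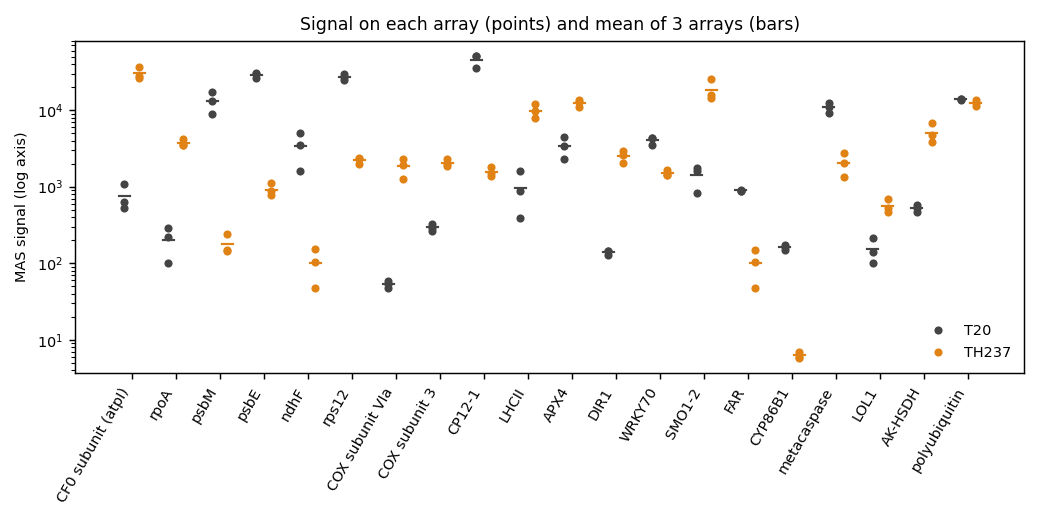
MAS signal of 20 named probe sets on each array, on a log axis, with T20 in grey and TH237 in orange; points are the arrays and bars the mean of 3 arrays. The arrays of the lines are apart at each probe set except polyubiquitin, where they overlap.

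Genes of the cuticle, the waxy layer over the epidermis, were called in a single direction. Of the 15 probe sets tested for wax, cutin and lipid transfer, 0 were called higher and 10 lower, a share of 66.7% that is near the 65.7% of the whole table, and none of the 15 changes was above 0. Their median change was -1.47. Fatty acyl-CoA reductases, which make the primary alcohols of wax, fell at several probe sets. The reductase probe set with qRT-PCR primers gave 892, 883 and 908 in T20 and 148, 103 and 46.8 in TH237, a change of -3.09 ± 0.33 (adjusted p 0.00688). Its primers mark the measured stretch of the transcript:
FAR forward: gtagaccccaataccataatggacg
FAR reverse: ccaccatcatagtgtttaccacca
The further probe set of this cluster changed by -2.45 ± 0.32, and a reductase of another cluster by -1.73 ± 0.25. CYP86B1, which in Arabidopsis adds hydroxyl groups to long fatty acids of surface polymers, gave 163, 173 and 148 in T20 and 5.85, 6.9 and 5.995 in TH237, a change of -2.99 ± 0.13 (adjusted p 2.07e-04). The TH237 signal was below the 55th percentile on each array, which gives at least 1.42-fold. GPAT6, an acyltransferase of cutin synthesis, changed by -0.58 ± 0.17 without passing, and a further probe set of its cluster fell by at least 1.37-fold (154, 191 and 126 against 25.6, 4.27 and 35.7). The lipid transfer proteins LTP3 and LTP4, which bind lipids at the cell surface, fell by 1.59 ± 0.15 and fell by 1.30 ± 0.25, and both are named after their values were seen. The summed signal of 18 epidermis markers, which are the cuticle probe sets and further LTP3 ones, was 33704 to 37480.5 in T20 and 18729.5 to 19765 in TH237. The anther and pollen markers, most of which are the same acyl reductases, summed to 5037 to 5336 in T20 and 2771 to 3264 in TH237 with 4 of 7 tested called lower, and the part of other cell types in these falls was not tested. Without T20 replicate 2, TH237 replicate 1 or TH237 replicate 2 the calls lower numbered 6, and without the other arrays 7 to 9, with the reductase probe set given with its signals and CYP86B1 called in all 6 fits.

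Membrane sterols and secondary metabolism did not move together. The sterol C4-methyl oxidase SMO1-2, which strips methyl groups from sterol precursors, gave 833, 1618 and 1763 in T20 and 15641, 25561 and 14454 in TH237, a rise of 3.73 ± 0.34 (adjusted p 0.00508), and its cluster's second probe set rose by 3.16 ± 0.53. The sterol demethylase CYP51G1, which acts on the same pathway, fell by 1.08 ± 0.15 (adjusted p 0.0164), from 5299.8, 6355 and 5287 to 2510.1, 2576 and 2894. Terpene synthases, which make volatile and defence terpenes, fell at the called members, from 6849, 9617 and 7222 to 1842, 1971 and 1956 at one (-2.01 ± 0.17, adjusted p 0.00379) and by -2.13 ± 0.41 at a second. The one given with its signals had medians of 9082 in Chris, 1495 in T183 and 1029 in T195, so it was lower in both Aegilops lines too. Chalcone synthase, the entry to flavonoids, fell from 458, 259 and 307 to 75.1, 79.97 and 81.7, at least 2.92-fold. A UDP-glucosyl transferase of the 73C6 type fell by 1.74 ± 0.16, from 13453, 10202 and 10640 to 3441, 3489.5 and 3231. Of the 13 probe sets for terpenoids, phenylpropanoids and flavonoids 8 were called lower and 1 higher, an aminotransferase (1.05 ± 0.14), and leaving out 1 array gave between 5 and 6 calls lower. In the detoxification list 3 of 13 fell, among them a peroxidase (-2.06 ± 0.21) and a glutathione S-transferase (-1.55 ± 0.31), and a UDP-glycosyltransferase rose (1.56 ± 0.30). SMO1-2 at the probe set given with its signals, the former terpene synthase, chalcone synthase, the 73C6-type transferase and the peroxidase were called with each array left out, and the other calls of this paragraph were lost without at least 1 array.

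Genes of induced defence were called in both directions. DIR1 is a lipid transfer protein needed in Arabidopsis for systemic acquired resistance, and FMO1 a monooxygenase of the same response. DIR1 gave 144, 128 and 146 in T20 and 2580, 2954 and 2034 in TH237 at one probe set, a rise of 4.02 ± 0.17 (adjusted p 2.07e-04), and rose by at least 2.92-fold at the other. FMO1 rose by 2.21 ± 0.40, from 129.8, 372 and 375 to 983, 1510 and 1418. Lipoxygenases, the oxygenases that open jasmonate synthesis, rose at the called members, one similar to LOX3 from 1064, 1386 and 2255 to 6757, 8117 and 4866 (2.10 ± 0.31, adjusted p 0.0209). WRKY70, which in Arabidopsis favours salicylate over jasmonate responses, fell. It gave 4278, 4278 and 3513 in T20 and 1430.2, 1441 and 1644 in TH237, a change of -1.41 ± 0.15 (adjusted p 0.00688), with -1.54 ± 0.17 at a second probe set, and WRKY45 fell by 1.25 ± 0.15. Other probe sets of the WRKY70 cluster did not pass (0.16 ± 0.16 and -0.35 ± 0.21). Of 15 probe sets in the jasmonate, salicylate and systemic resistance list 8 were called higher and 3 lower. The 3 falls, at WRKY70 and WRKY45, and both DIR1 rises were called with each array left out, whereas the rises of FMO1 and of the LOX3-like gene passed in 1 and 2 of the 6 fits. Without T20 replicate 1, 2 or 3 the calls higher numbered 6, 4 and 6, and without TH237 replicate 1, 2 or 3 they numbered 2, 2 and 3.

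Among resistance proteins and PR proteins 3 of 12 were called higher and 2 lower. A powdery mildew resistance protein homologue rose from 87.5, 144 and 62.9 to 598, 349 and 498 (2.15 ± 0.30, adjusted p 0.0176), and a homologue of the resistance gene Vrga1 rose from 118, 75.8 and 88.3 to 541, 351 and 284 (1.86 ± 0.26). A leucine-rich repeat member rose by 1.62 ± 0.30. A resistance protein of the NBS-LRR class fell, by at least 2.76-fold, and so did a disease resistance-responsive protein (-1.51 ± 0.26). The list had no common direction, with a median change of -0.77, and none of its 5 calls held with each array left out. The rises numbered 1, 1 and 4 without T20 replicate 1, 2 or 3 and 2, 1 and 1 without TH237 replicate 1, 2 or 3, and the falls 1, 0 and 1 and then 3, 0 and 0.

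Genes tied to cell death also divided. LOL1, related to the cell death regulator LSD1 of Arabidopsis, gave 99.7, 140.2 and 214 in T20 and 531, 686 and 474 in TH237, a rise of 1.83 ± 0.27 (adjusted p 0.0212). The study's primers for it, under the name LSD 1, are given since the transcript was measured by both methods:
LSD 1 forward: cagtttcgtcacgtcagttggg
LSD 1 reverse: gcttcccaaataaagttgcagga
A second LOL1 cluster rose by 1.76 ± 0.29. Metacaspases, proteases that act in plant cell death, fell. One gave 10875, 9146 and 12576 in T20 and 2742, 1322 and 2029 in TH237, a change of -2.46 ± 0.27 (adjusted p 0.00793), and the other gave 23279, 23303 and 27888 and 6445, 5318 and 8167, a change of -1.92 ± 0.19. The sugar transporter STP13 fell by 1.78 ± 0.27 and VEP1 by 1.96 ± 0.20, from 441, 606 and 579.6 to 143, 98.1 and 143. Both metacaspases and VEP1 passed with each of the 6 arrays left out. The calls of LOL1 probe sets numbered 1, 0 and 2 without T20 replicate 1, 2 or 3 and 0 without any of the TH237 arrays. Heat shock proteins and chaperones were mostly higher, with 5 of 7 called higher and 1 lower. Proteins of the DNAJ type, which hand clients to HSP70, rose by 2.53 ± 0.45 and 1.44 ± 0.15, and HSP101, which frees aggregated proteins, fell by at least 2.04-fold. Without T20 replicate 1, 2 or 3 the calls higher numbered 3, 2 and 5 and without TH237 replicate 1, 2 or 3 they numbered 3, 2 and 3, and HSP101 was called in 1 of these 6 fits.

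Enzymes of sucrose breakdown and of the carbon entry to organic acids rose together. All 8 probe sets tested of the sucrose and glycolysis list were called higher, with changes from 1.10 to 2.09 and a median of 1.67. Phosphoenolpyruvate carboxylase, which fixes carbon into oxaloacetate, gave 744, 516 and 757 in T20 and 3346, 2852 and 2474 in TH237, a rise of 2.09 ± 0.20 (adjusted p 0.00596), and all 4 probe sets of its cluster were called higher. The invertase FRUCT5 rose by 1.80 ± 0.25, and a further probe set of its cluster from 252, 346 and 462 to 1789.6, 1933 and 1519 (2.29 ± 0.23). Sucrose synthase SUS4 rose from 134, 123 and 126 to 427, 692 and 335 (1.74 ± 0.25, adjusted p 0.0204). Leaving out T20 replicate 1, 2 or 3 gave 4, 2 and 4 calls, and leaving out TH237 replicate 1, 2 or 3 gave 3, 4 and 5, with the phosphoenolpyruvate carboxylase and invertase probe sets given with their signals called in all 6 fits.

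In amino acid metabolism 6 of 18 probe sets were called higher and 7 lower. The bifunctional aspartate kinase-homoserine dehydrogenase, the entry to threonine and methionine, gave 525, 574 and 473 in T20 and 4666, 6694 and 3787 in TH237, a rise of 3.19 ± 0.22 (adjusted p 0.00206). A lysine-sensitive aspartate kinase rose by 1.83 ± 0.38 and threonine synthase, which ends that branch, by 1.05 ± 0.18. Glutamine synthetase, which binds ammonia, rose from 1066, 1456 and 1394 to 3269.9, 4479.7 and 2759 (1.40 ± 0.22). Falls lay on other branches, at the branched-chain aminotransferase BCAT-5 (-2.04 ± 0.29), the polyamine enzyme arginine decarboxylase ADC2 (-1.78 ± 0.17) and the GABA transaminase POP2 given above. ADC2 gave 616, 452 and 514 in T20 and 126, 155 and 146 in TH237, but its further probe sets did not pass (-0.28 ± 0.25 and -0.65 ± 0.23). Without T20 replicate 1, 2 or 3 the rises and the falls both numbered 2, 2 and 4, and without TH237 replicate 1, 2 or 3 they numbered 2, 2 and 4 for rises and 3, 3 and 4 for falls, and the aspartate kinase-homoserine dehydrogenase and ADC2 were called in all 6 fits.

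Transporters were called higher at 11 and lower at 8 of 25 probe sets. A proton-dependent oligopeptide transporter gave 211, 193 and 177 in T20 and 1702, 1619 and 1636 in TH237, a rise of 2.99 ± 0.13 (adjusted p 2.07e-04), and a second of this family fell, by at least 1.53-fold. The aquaporin-like NIP1;2 fell from 819, 1167 and 1199.6 to 272, 124 and 209 (-2.35 ± 0.29), and the polyol transporter PLT5 by 1.17 ± 0.15. A further probe set of the NIP1;2 cluster changed by -0.17 ± 0.24 with overlapping lines and did not pass (adjusted p 0.749). The oligopeptide transporter that rose and NIP1;2 at the probe set given with its signals were called with each array left out. The calls higher numbered 8, 8 and 9 without T20 replicate 1, 2 or 3, and without TH237 replicate 1, 2 or 3 they numbered 6, 4 and 7, while the calls lower numbered 5 without each T20 array in turn and 4, 4 and 5 without TH237 replicate 1, 2 or 3.

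Regulators of transcription were called higher at 17 and lower at 7 of 29 probe sets. A B-box zinc finger protein, of a family with roles in light signalling, was dim in T20 with 3.87, 37.9 and 81.1 and gave 489, 420 and 505 in TH237, a rise of at least 4.44-fold (adjusted p 0.0228), and another B-box member fell by at least 1.95-fold. A cytosine-5 DNA methyltransferase rose by at least 2.81-fold and the coactivator KIWI by at least 1.59-fold. A probe set matched to the large subunit of RNA polymerase II had 1358, 7918 and 1642 in T20 and 23091, 18598 and 25021 in TH237 (3.07 ± 0.62). The study's probe set table places it in the chloroplast, so its identity is uncertain, and its call passed in 1 of the 6 fits with an array left out. The zinc finger protein ZAT11 fell from 1799, 1261 and 1519 to 329.6, 232 and 299.6 (-2.35 ± 0.20, adjusted p 0.00379). The MADS-box genes AGL20 and AGL12, relatives of flowering regulators, fell by 1.24 ± 0.16 and 1.34 ± 0.19. The meristem and flower markers, which are these genes and one like APETALA1, summed to 1495 to 1769.6 in T20 and 1500.4 to 2489 in TH237. The calls higher numbered 5 without TH237 replicate 1 or 2 and between 9 and 10 without another array, and the B-box fall and ZAT11 were called in all 6 fits.

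Cell wall genes and hydroxyproline-rich proteins were called higher at 6 and lower at 8 of 19 probe sets. An extensin-like protein with leucine-rich repeats gave 10.4, 65.7 and 73.1 in T20 and 1082, 2211 and 2019.5 in TH237, at least 16-fold higher (adjusted p 0.00663). A glycosyl hydrolase of family 51, of a kind that cuts arabinose from wall polymers, rose from 62.0, 23.5 and 77.0 to 648, 991 and 677, at least 7.15-fold, and one of family 3 from 1505, 977 and 1355 to 6581, 9208 and 4869 (2.39 ± 0.27). A second extensin-like member fell from 950.4, 552 and 619 to 93.8, 155 and 107 (-2.41 ± 0.26, adjusted p 0.00688). In protein turnover and signalling, 11 of 27 probe sets were called higher and 7 lower. The ubiquitin gene UBQ4 rose by 1.84 ± 0.18, from 440.4, 426 and 576 to 1923, 1836 and 1496, and a receptor-like cysteine-rich kinase, CRK6, named after its value was seen, by 1.72 ± 0.21, or at least 2.12-fold. A serine/threonine kinase fell by at least 2.62-fold, while its cluster mate missed the threshold (-0.66 ± 0.24). Both extensin-like proteins, both glycosyl hydrolases, UBQ4 and this kinase were called with each array left out. Leaving out T20 replicate 1, 2 or 3 gave 4, 4 and 5 falls among the cell wall genes, and leaving out TH237 replicate 1, 2 or 3 gave 7, 4 and 5. In turnover and signalling the rises numbered 5, 4 and 7 without T20 replicate 1, 2 or 3 and 2, 2 and 6 without TH237 replicate 1, 2 or 3, and the falls numbered between 4 and 6.

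**Figure D5:**
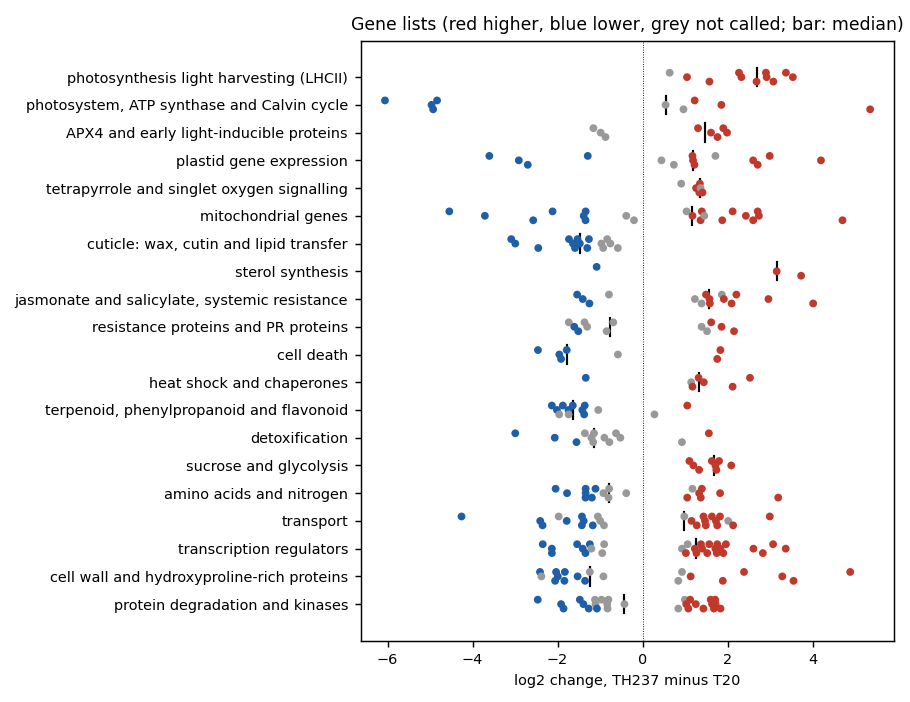
Change of each tested probe set of 20 gene lists, on the x axis as the log2 change of TH237 minus T20, with the lists on the y axis; red points were called higher, blue lower and grey not called, and the black bar is the list's median. All points of the cuticle list lie below 0 and all of the LHCII, tetrapyrrole and sucrose lists above it, while the other lists hold points on both sides.

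Probe sets that share a cluster with a list member but were not picked by the study are a less selected view of the same clusters. A large part of them belongs to a single cluster, which entered through a probe set annotated as an early light-inducible protein. They need not measure the listed genes, so their count describes the clusters. Of 174 such probe sets 9 were called higher and 7 lower, 9.2% beside the 2.27% of all probe sets tested, with a median change of 0.06. Across all 637 calls, 63 clusters held 2 or more called probe sets, 3 of them called in both directions. The uncalled probe sets of clusters called in a single direction numbered 248, of which 215 (86.7%) had the sign of the call.

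Many calls carried no gene name. The second largest rise, at a probe set of no known gene, gave 9.32, 56.2 and 12.8 in T20 and 1628, 564 and 2863 in TH237, at least 13-fold (adjusted p 0.0102), and a further probe set of its cluster rose by 2.97 ± 0.46. A probe set outside the study's table fell from 588, 641 and 749.9 to 46.9, 32.8 and 42.5, at least 5.79-fold, and a second from 19281, 16354 and 16580 to 1362, 1072 and 2929 (-3.40 ± 0.35). A ribonuclease of the T2 family gave 51.0, 3.45 and 121 in T20 and 839.5, 1151 and 407 in TH237 (3.73 ± 0.70, adjusted p 0.0394), and the T20 arrays spread widely at it. A probe set for an expressed protein fell from 1862, 1552 and 1818 to 120.3, 158 and 234 (-3.28 ± 0.23). The falls of this paragraph were called with each array left out, the second largest rise in 5 and the ribonuclease in 1 of the 6 fits. In all, 283 called probe sets were outside the study's probe set table, 177 higher and 106 lower, with a median size of 1.24.

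At 137 called probe sets the dimmer line lay below the 55th percentile on all 3 arrays. Such probe sets passed the filter only through the other line. Its 3 arrays were above the percentile by the filter itself, so that side is no result. For 73 of these the signal was in TH237, and for 64 in T20. Of the 73, 44 were below the percentile on each of the 9 arrays of the Chris background and 8 above it on all 9. Of the 64, 3 were below it on each of the 9 and 26 above it on all 9. Among named genes of the former kind were cytochrome c oxidase subunit VIa, the extensin-like protein that rose, the family 51 glycosyl hydrolase and the B-box protein. Each was also below the percentile on all 9 arrays of the Chris background.

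The change of TH237 against T20 was also tested against the mean change of the Aegilops lines against Chris, in one fit of the 15 arrays. The nuclear backgrounds differ, and the study's methods give more backcrosses for the Aegilops lines than for TH237. Cytoplasm, nuclear background and donor genes left in a line therefore cannot be told apart in these differences. The effects differed by at least 2-fold at 872 probe sets (3.1% of those tested), with the TH237 change the more positive at 606 and the more negative at 266. Of the 637 probe sets called in TH237, 412 differed in the direction of their call. Without Chris replicate 3 the count was 539, without T20 replicate 1 it was 477 and without TH237 replicate 2 it was 489. Among named genes, DIR1 at its more strongly rising probe set had a difference of 4.74 ± 0.34 (adjusted p 1.80e-05) and phosphoenolpyruvate carboxylase one of 2.67 ± 0.33 (adjusted p 0.00159). The acyl reductase with primers had one of -3.04 ± 0.54 (adjusted p 0.00864) and the more strongly falling metacaspase one of -2.26 ± 0.46 (adjusted p 0.0165). The DIR1 signals were 739.5 in Chris, 342 in T183 and 446 in T195 in the median, so the rise in TH237 had no counterpart there. The test did not pass for WRKY45 (-0.59 ± 0.43, adjusted p 0.511) or chalcone synthase (-0.55 ± 0.76, adjusted p 0.762).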

How the data were processed

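The values analysed are intensity values, namely MAS5 signals of the Affymetrix Wheat Genome Array that the authors deposited, 1 per probe set and array. The scaling is not given in the sources used here and is inferred from the values, since the 2% trimmed mean was 500.3 on each of the 15 arrays. The study's methods name RMA for its own comparisons and MAS5 for detection calls, and RMA values were not used here. Unequal background or scaling between arrays would therefore enter the changes. Of 61290 probe sets, 111 hybridization controls were left out.

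Signals were taken as log2(signal + 16) and fitted with limma 3.58.1 (lmFit and eBayes, R 4.3.3) on the 6 arrays alone, with Benjamini-Hochberg adjustment over 28106 probe sets and the 2-fold limit of the methods. The 55th percentile was taken over the probe sets without controls, and probe sets were kept when above it on at least 3 arrays. The difference from the Aegilops lines was a contrast in a limma fit of all 15 arrays. The median signal per array ran from 72.0 to 94.9 and the 55th percentile from 96.6 to 121, and 3 arrays per line limit the precision. The scripts were tested on simulated data.

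Named were the 12 largest called rises and falls without overlap, up to 4 called members of each gene list with the largest change (at most 2 a cluster), the genes of the qRT-PCR table with its reference, members that move against their list, and further probe sets of a named cluster. Gene names come from the study's probe set table, and for endosperm and LTP3 markers from the platform annotation. The primers are those of the study. Members and lists were chosen with earlier results of these data known.

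The replicate numbers do not pair the arrays, since the deviations of same-numbered arrays correlated by 0.0148, 0.0445 and 0.00637. Alternatives were the methods' t-test, a trend in the prior variance, all 15 arrays in the fit, the replicate block, median centring or quantile normalization, 1 or 64 in place of 16, other filters and fold limits, and each array left out.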

Additional observations from a re-analysis of the deposited data

Results flagged for a closer look

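The change in TH237 against T20 differed from the mean change in the Aegilops lines against Chris at 872 probe sets by a limma contrast, and at 412 of the 637 probe sets called in TH237 in the direction of the call. In this contrast cytoplasm, nuclear background and donor genes left in a line cannot be told apart. Of the named probe sets, 6 had the largest differences. The called psbM probe set differed by -5.84 ± 0.42 (limma adjusted p 1.80e-05). The LHCII probe set with the largest rise differed by 5.39 ± 1.37 (adjusted p 0.0438), and by 3.64 ± 0.58 (adjusted p 0.00978) without Chris replicate 3, an alternative chosen after seeing the data. The second largest rise, of no known gene, differed by 5.20 ± 0.72 (adjusted p 0.00296) and the CF0 subunit by 5.08 ± 0.35 (adjusted p 1.80e-05). The mitochondrial repeat with the deeper fall differed by -5.04 ± 0.48 (adjusted p 2.09e-04) and the rising extensin-like protein by 4.75 ± 0.70 (adjusted p 0.00372). Groups of 3 arrays were too small to be searched for outlying arrays.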

How the results depend on the processing

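The 637 calls (394 higher, 243 lower) came to between 597 and 776 with median centring, quantile normalization, 1 or 64 in place of 16, the prior trend, all 15 arrays, the 70th percentile and the filter on all arrays of a line, and to 514 with the methods' t-test after the 2-fold limit. The methods' t-test adjusted over all probe sets gave 1 call, 0 higher and 1 lower (3981 at an unadjusted p of at most 0.05), a proline-rich protein. Without a signal filter 48 were called, 21 higher and 27 lower, out of 61179 tested. Without a fold limit, or at 1.5-fold, 1016 were called, 596 higher and 420 lower. With 1 array left out the calls ran from 232 to 439, from 118 to 297 higher and from 106 to 184 lower, the higher share between 50.9% and 67.7% beside 61.9% in the fit of 6 arrays. With the replicate block 204 were called, 113 higher and 91 lower, the higher share being 55.4%. The 872 differences from the Aegilops cytoplasms came to 362 without the filter, to between 477 and 736 with 1 array left out and to 539 without Chris replicate 3. The cause of these shifts was not tested, but leaving out an array lowers the number of samples and dropping the filter adds dim probe sets.

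Of the 127 named calls, 0 changed direction. The call was lost at 102 without the filter, at 58 with the replicate block, at 127 and 19 with the methods' t-test in its 2 orders, at 33 to 55 with 1 array left out, and at 12 or fewer under each other scaling or added value, the prior trend and the fit of all 15 arrays, while the stricter percentile tested 103. Signals under the 55th percentile gave only bounds.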

Other observations

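By kind of probe set, the share called was 2.22% of those specific to a transcript (ending in _at), 1.78% of those ending in _a_at, 3.08% of those shared by several transcripts (_s_at) and 2.43% of those with some shared probes (_x_at). The largest principal component of the 6 arrays held 43.6% of the variance and separated the lines, with T20 arrays between -53.5 and -31.0 and TH237 arrays between 36.8 and 42.0, and the next held 16.2%.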
